A study of Mus musculus with 4 samples.

Results

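The genes described here are 10 genes of the inflammasome, of interleukin 1 and of TNF: Nlrp3, Pycard, Casp1, Casp4, Gsdmd, Il1a, Il1b, Il1rn, Il18 and Tnf. They were picked by gene name, with earlier results of these data known, and their 12 rows belong to a table of 23750 transcript rows with 18674 gene names. Where a gene has more than 1 row (Il1rn has 3), the mean of its rows was taken. RNA was sequenced from the lumbar part of the spinal cord in 4 libraries, 1 per group: WT with vehicle, G93A with vehicle, WT with SD and G93A with SD. WT mice do not carry the transgene, and G93A mice carry a mutant human SOD1 transgene (the H1 high-expresser strain, on a B6/SJLF1 background), a mouse model of amyotrophic lateral sclerosis (ALS). SD is spermidine, a polyamine that the study examined for its effect on the histone demethylase LSD1. All mice received either SD or vehicle (PBS) for 30 days at 4 doses per week, and the methods give 100 days as the age at collection and male mice for the treatment studies. The sources used here do not say how many animals stand behind a library, and the human transgene has no row of its own in the mouse table that could check the genotype labels.

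With 1 library per group, no difference between groups has a replicate check, and no p-value is given. The values are RPKM, that is, reads scaled to the length of the transcript and to the size of the library, so that levels of genes of unequal length can be set side by side. A gene was called higher or lower where 2 libraries differed at least 1.5-fold, with no pseudocount. The estimated depth ranged from 36800000 read pairs (WT vehicle) to 38600000 (G93A + SD). Averaged over the 4 libraries, 6 of the 10 genes reached 1 RPKM (Il18, Casp1, Pycard, Gsdmd, Il1a and Casp4) and 4 lay below it (Il1b, Nlrp3, Il1rn and Tnf). Of the former, Pycard, Gsdmd, Il1a and Casp4 were below 1 RPKM in both WT libraries and reached it through the G93A libraries. All 5 lumbar Hox markers were above 0 in every library, but their summed levels differed by genotype, with 43.9 and 43.8 RPKM in the WT libraries against 31.6 and 29.4 RPKM in the G93A libraries. Hoxc10 was called lower in G93A in both pairs and Hoxd10 in the SD pair, and the part of such a difference in the levels of the 10 genes was not tested.

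An inflammasome is a protein complex that assembles in the cytosol, mostly of myeloid cells, when a sensor such as NLRP3 meets a sign of infection or damage. The sensor recruits the adaptor ASC, which gathers caspase-1, and caspase-1 then cuts the precursors of interleukin 1 beta and interleukin 18 as well as gasdermin D, whose cut end forms pores in the cell membrane. Interleukin 1 and TNF are among the first cytokines made by activated microglia, the resident macrophages of the spinal cord, and their transcription is driven largely by NF-kB.

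The promoters of 5 of the genes are shown. Il1b and Casp4 had the largest ratios that could be formed between the vehicle libraries, Il1a and Tnf code for the other early cytokines, and Il18 was nearly level between the genotypes. Each line is the 250 bases before the start of transcription given by RefSeq (GRCm38.p6), written 5′ to 3′ on the strand of the gene. Il1a is at chr2:129309973-129310222 (minus strand), Il1b at chr2:129371140-129371389 (minus strand), Tnf at chr17:35202008-35202257 (minus strand), Casp4 at chr9:5308599-5308848 (plus strand) and Il18 at chr9:50554450-50554699 (plus strand). Capitals mark matches to the motifs searched on both strands, which were TATAAA (the core of a TATA box), TGACTCA (the core of an AP-1 site), GAGGAAGT (a site of the myeloid factor PU.1), a pair of GAAA with 2 bases between them (interferon response) and the NF-kB consensus.
Il1a: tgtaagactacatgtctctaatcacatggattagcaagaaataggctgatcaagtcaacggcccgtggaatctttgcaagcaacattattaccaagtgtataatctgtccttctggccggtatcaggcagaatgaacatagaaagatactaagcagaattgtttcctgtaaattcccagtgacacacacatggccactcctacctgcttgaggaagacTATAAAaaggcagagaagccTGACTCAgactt
Il1b: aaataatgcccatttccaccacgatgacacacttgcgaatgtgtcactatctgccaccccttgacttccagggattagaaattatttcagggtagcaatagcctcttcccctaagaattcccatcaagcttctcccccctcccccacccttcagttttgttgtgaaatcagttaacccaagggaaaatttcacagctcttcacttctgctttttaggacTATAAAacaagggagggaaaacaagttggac
Tnf: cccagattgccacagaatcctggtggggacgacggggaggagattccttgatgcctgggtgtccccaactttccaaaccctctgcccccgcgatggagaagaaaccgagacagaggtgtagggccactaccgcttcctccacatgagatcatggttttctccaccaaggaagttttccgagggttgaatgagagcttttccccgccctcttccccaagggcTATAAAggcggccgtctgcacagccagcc
Casp4: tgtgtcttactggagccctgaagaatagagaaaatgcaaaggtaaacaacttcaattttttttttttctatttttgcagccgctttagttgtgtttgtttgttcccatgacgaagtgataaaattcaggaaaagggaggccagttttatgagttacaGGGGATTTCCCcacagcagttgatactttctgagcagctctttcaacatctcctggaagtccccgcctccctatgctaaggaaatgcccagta
Il18: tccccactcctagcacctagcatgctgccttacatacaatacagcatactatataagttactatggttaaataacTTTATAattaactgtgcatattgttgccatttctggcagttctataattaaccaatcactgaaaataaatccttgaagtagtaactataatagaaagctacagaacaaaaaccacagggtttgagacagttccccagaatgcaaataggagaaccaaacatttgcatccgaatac

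In Il1a the capitals are TATAAA at 32 to 27 bases before the start and TGACTCA at 12 to 6 bases before it. Il1b holds TATAAA at 31 to 26 bases and Tnf at 29 to 24 bases before the start, both on the strand of the gene. In Casp4 the capitals are overlapping matches to the NF-kB consensus, 93 to 83 bases before the start. Il18 holds TATAAA only on the other strand, 175 to 170 bases before the start. The promoter table held 9 of the 10 genes in 13 promoters and did not hold Gsdmd. Of all 32851 promoters of the same length, 12.4% held TATAAA, 4.46% TGACTCA, 2.44% GAGGAAGT, 2.98% the pair of GAAA and 3.90% the NF-kB consensus. TATAAA on the strand of the gene between 40 and 20 bases before the start was found for 3 of the 9 genes (Il1a, Il1b and Tnf). It was found in 628 of the 32851 promoters (1.91%). The former is a count of genes, which have 13 promoters, and the latter a count of promoters. The window was set after the matches of these genes had been seen. Among the promoters not shown, that of Pycard held GAGGAAGT and that of Casp1 none of the motifs. Nlrp3 and Il1rn each have more than 1 promoter. The Nlrp3 promoter at chr11:59541319-59541568 held the NF-kB consensus and the Il1rn promoter at chr2:24336610-24336859 held TGACTCA. The other promoters of Nlrp3 and Il1rn held none of the motifs. These are matches of letters and not binding sites.

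The sensor of the complex was low in every library. Nlrp3 (chromosome 11, 59541568 to 59566956, plus strand, 10 exons) was at 0.255 RPKM in WT vehicle, 0.109 RPKM in WT + SD, 0.657 RPKM in G93A vehicle and 0.903 RPKM in G93A + SD. Both G93A libraries lay above both WT libraries, by 2.57-fold between the vehicle libraries and by 8.25-fold between the SD libraries. The larger ratio of the SD pair goes with a low WT + SD value, which rests on an estimated 16.8 read pairs against 37.8 in WT vehicle, 100 in G93A vehicle and 140 in G93A + SD. With a pseudocount of 0.1 RPKM the ratios were 2.13 and 4.79. In RNA of whole tissue, more cells of a type and more RNA per cell cannot be told apart, here and for all genes below.

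The adaptor and the caspase of the complex were higher in G93A as well. Pycard, which codes for ASC (chromosome 7, 127989708 to 127993867, minus strand, 3 exons), was at 0.909 RPKM in WT vehicle, 0.938 RPKM in WT + SD, 3.83 RPKM in G93A vehicle and 4.01 RPKM in G93A + SD. The WT libraries were nearly level with each other and so were the G93A libraries, which were 4.21-fold higher with vehicle and 4.28-fold higher with SD. Casp1 (chromosome 9, 5298517 to 5307265, plus strand, 10 exons) was at 1.95 RPKM in WT vehicle, 1.72 RPKM in WT + SD, 4.24 RPKM in G93A vehicle and 5.38 RPKM in G93A + SD. It was the second most abundant of the 10 genes in every library and was 2.18-fold higher in G93A with vehicle and 3.14-fold higher with SD.

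Casp4, the mouse gene also known as caspase-11, senses bacterial lipopolysaccharide inside the cell and cuts gasdermin D without caspase-1. It lies only 1.6 kb downstream of Casp1 (chromosome 9, 5308828 to 5336783, plus strand, 9 exons). Its level was 0.130 RPKM in WT vehicle, 0.134 RPKM in WT + SD, 1.90 RPKM in G93A vehicle and 1.88 RPKM in G93A + SD. Casp4 was therefore 14.6-fold higher in the G93A library of the vehicle pair, while its neighbour Casp1 was 2.18-fold higher, and with a pseudocount of 0.1 RPKM these ratios were 8.69 and 2.12. The SD pair gave 14.0-fold for Casp4 (8.44 with the pseudocount), and the WT values rest on an estimated 6.88 and 7.38 read pairs against 104 in each G93A library. Gsdmd, the pore-forming substrate of both caspases (chromosome 15, 75862327 to 75867408, plus strand, 11 exons), was at 0.760 RPKM in WT vehicle, 0.971 RPKM in WT + SD, 2.41 RPKM in G93A vehicle and 2.97 RPKM in G93A + SD. It was 3.18-fold higher in G93A with vehicle and 3.06-fold higher with SD.

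**Figure D1:**
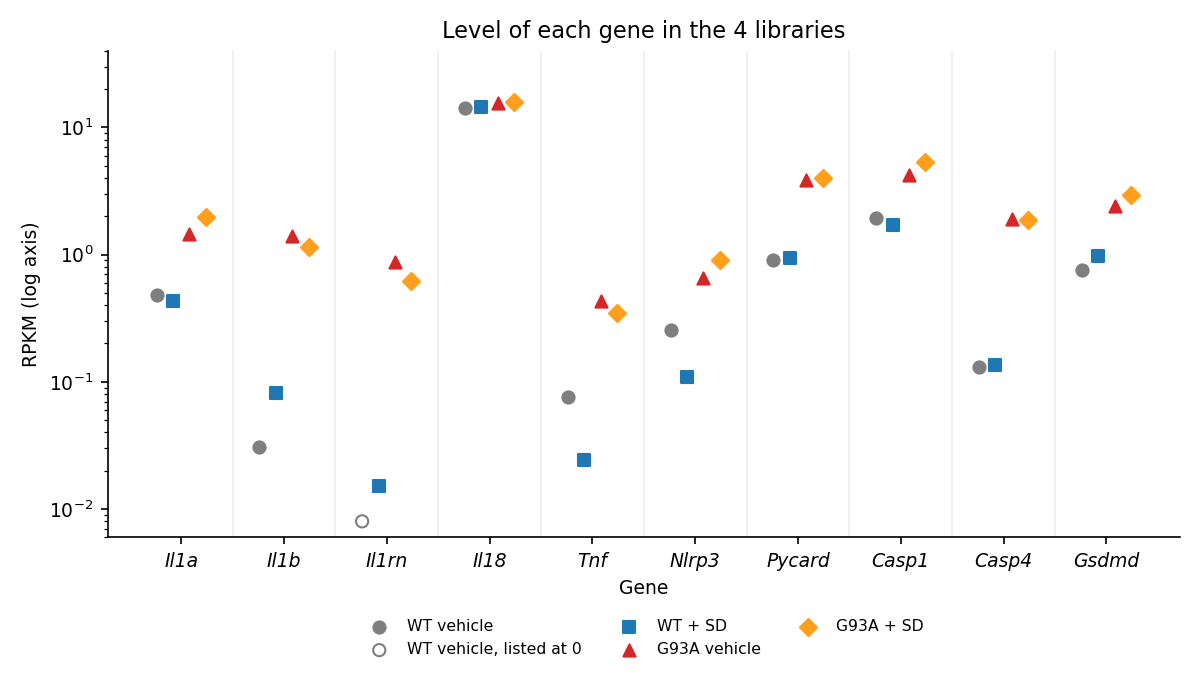
Level of each of the 10 genes in the 4 libraries, in RPKM on a log axis, with 1 point per library and no error bars because each group is 1 library. The open circle stands for Il1rn in WT vehicle, which is listed at 0 and is drawn at the foot of the axis. Il18 sits between 14.1 and 15.8 RPKM in all libraries, and for the other genes both G93A points lie above both WT points.

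Of the cytokine genes, the agonists of interleukin 1 were scarce in WT cord. Il1b (chromosome 2, 129364570 to 129371139, minus strand, 7 exons) codes for the secreted agonist that caspase-1 cuts, and was at 0.0307 RPKM in WT vehicle, 0.0812 RPKM in WT + SD, 1.40 RPKM in G93A vehicle and 1.14 RPKM in G93A + SD. The ratio of 45.7 between the vehicle libraries rests on an estimated 1.53 read pairs in WT vehicle and 72.2 in G93A vehicle, and with a pseudocount of 0.1 RPKM it was 11.5. Between the SD libraries Il1b was 14.0-fold higher in G93A, on an estimated 4.22 and 59.6 read pairs, and with the same pseudocount the ratio was 6.83. Il1a codes for the agonist that is active before it is cut and lies 54.6 kb from Il1b on the same strand (chromosome 2, 129299610 to 129309972, minus strand, 7 exons). Its level was 0.485 RPKM in WT vehicle, 0.430 RPKM in WT + SD, 1.45 RPKM in G93A vehicle and 1.98 RPKM in G93A + SD. Il1a was thus the more abundant of the 2 agonists in both WT libraries and nearly level with Il1b in G93A vehicle, and it was 3.0-fold higher in G93A with vehicle and 4.61-fold higher with SD.

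The antagonist of interleukin 1 was at or near 0 in WT cord. Il1rn, which codes for the receptor antagonist that blocks both agonists (chromosome 2, 24336853 to 24351494, plus strand, 4 exons in the matched transcript), was listed at 0 in WT vehicle and was at 0.0153 RPKM in WT + SD, 0.869 RPKM in G93A vehicle and 0.615 RPKM in G93A + SD. No ratio can be given for the vehicle pair, and the ratio of 40.3 between the SD libraries rests on an estimated 1.04 read pairs in WT + SD and was 6.21 with a pseudocount of 0.1 RPKM. In G93A the antagonist was below the agonists, since Il1b was 1.61-fold and Il1a 1.67-fold the level of Il1rn in G93A vehicle. In G93A + SD these ratios of levels were 1.85 for Il1b and 3.22 for Il1a.

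Il18 stood apart from the other genes. It codes for the other cytokine cut by caspase-1 (chromosome 9, 50554827 to 50581840, plus strand, 6 exons), and its level was 14.1 RPKM in WT vehicle, 14.4 RPKM in WT + SD, 15.5 RPKM in G93A vehicle and 15.8 RPKM in G93A + SD. It was the most abundant of the 10 genes in every library, and the 4 values lay within 448 to 525 estimated read pairs. The G93A levels were 1.09-fold the WT level with vehicle and 1.10-fold with SD, which is under the threshold.

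Tnf, the ligand of the TNF receptors (chromosome 17, 35199381 to 35202007, minus strand, 4 exons), was the least abundant of the 10 genes in both G93A libraries. Its level was 0.0755 RPKM in WT vehicle, 0.0242 RPKM in WT + SD, 0.429 RPKM in G93A vehicle and 0.350 RPKM in G93A + SD. The ratio of G93A to WT was 5.68 with vehicle and 14.5 with SD, on estimated read pairs of 4.56 and 26.7 for the vehicle libraries and of 1.52 and 22.2 for the SD libraries. With a pseudocount of 0.1 RPKM the ratios were 3.01 and 3.62.

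To ask how the ALS transgene relates to these genes, G93A was compared with WT at each treatment. Between the vehicle libraries 9 of the 10 genes were higher in G93A and 0 were lower, while 20.3% of all 18674 names were higher and 10.3% lower. Between the SD libraries 9 of the 10 were again higher and 0 lower, against 23.2% and 12.5% of all names. Il18 was the gene that was not called in either pair. Since the 10 genes were picked with results of these libraries known, the counts are a description. The median log2 ratio of the 10 genes (with a pseudocount of 0.1 RPKM) was 1.57 with vehicle and 1.98 with SD, and that of all names was 0.05 in both pairs. Taking the 4 libraries together, both G93A libraries lay above both WT libraries for all 10 genes, as they did for 39.7% of all names, and by at least 1.5-fold for 9 of the 10, as for 13.1% of all names.

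To ask how SD relates to these genes, SD was compared with vehicle in each genotype. In G93A, 0 of the 10 genes were called higher and 0 lower, while 8.71% of all names were higher and 7.31% lower. By any amount, 6 genes were higher with SD and 4 were lower. The ratios of G93A + SD to G93A vehicle ranged from 0.708 for Il1rn to 1.37 for Nlrp3, with Il1a at 1.36, Casp1 at 1.27, Gsdmd at 1.23, Pycard at 1.05, Il18 at 1.02, Casp4 at 0.989, Tnf at 0.817 and Il1b at 0.812. The median log2 ratio was 0.05 for the 10 genes and 0.01 for all names. Whether any of these differences is larger than the spread between animals was not testable with 1 library per group.

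In WT, 4 of the 10 genes (Il1b, Il1rn, Tnf and Casp4) rested on fewer than 8 estimated read pairs in each library. Il1b and Il1rn were called higher with SD, 2 of 10 genes against 7.18% of all names, and Tnf and Nlrp3 were called lower, 2 of 10 against 8.55% of all names. With a pseudocount of 0.1 RPKM 0 genes were higher and 1 (Nlrp3) was lower. The ratio was 2.65 for Il1b and 0.321 for Tnf, each on fewer than 5 estimated read pairs per library, and Il1rn was listed at 0 in WT vehicle. Nlrp3 was at 0.429 of its vehicle level, on an estimated 16.8 against 37.8 read pairs. Red cell markers differed in the same pair, with 4 of 4 called higher in WT + SD and summed levels of 28.0 RPKM in WT vehicle, 56.4 RPKM in WT + SD, 41.9 RPKM in G93A vehicle and 45.7 RPKM in G93A + SD, and the part of blood in these calls was not tested. The other 6 genes were not called, and their ratios lay between 0.881 for Casp1 and 1.28 for Gsdmd. The comparisons share libraries: the values of each of the 4 libraries enter both a comparison of genotype and a comparison of SD.

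**Figure D2:**
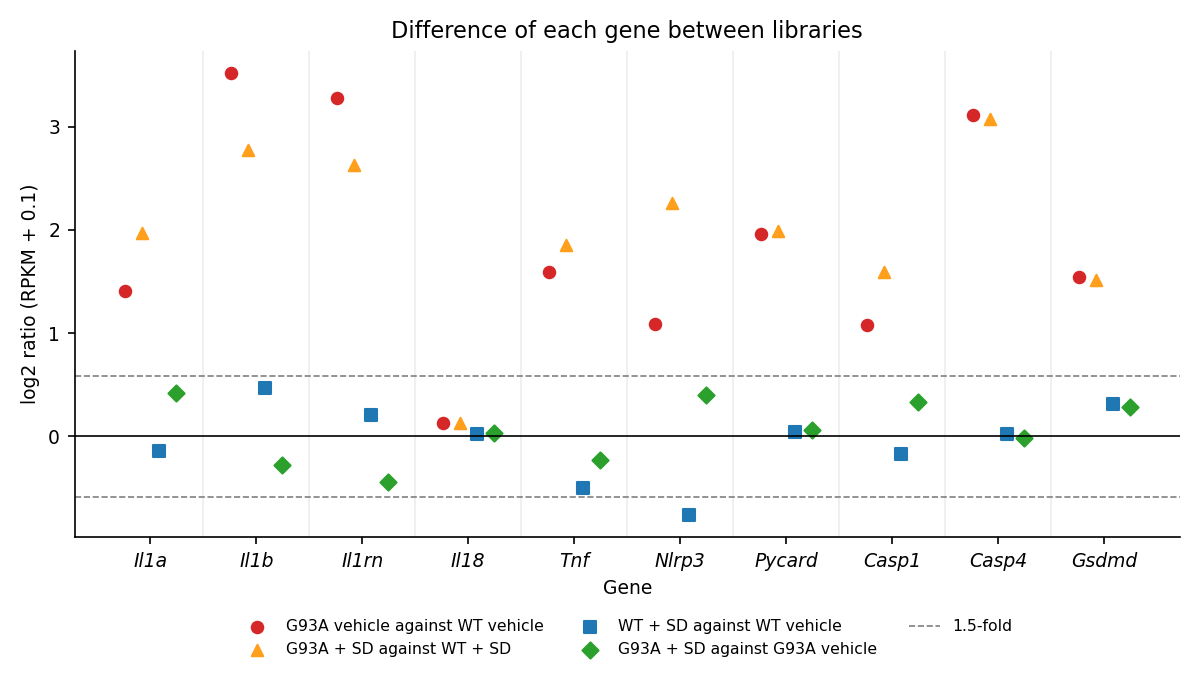
Difference of each gene between libraries for the 4 comparisons, as the log2 ratio of RPKM plus a pseudocount of 0.1, with dashed lines at 1.5-fold in each direction. The genotype comparisons of 9 genes lie above the upper line and those of Il18 lie near 0, while every SD comparison in G93A lies between the lines. In WT + SD, Il1b, Il1rn and Tnf lie inside the lines with the pseudocount, although they were called without it.

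Genes that act around these 10 were taken from 8 lists of named pathway genes, of which 80 were in the table. The shares of all names called in the vehicle pair, 20.3% higher and 10.3% lower, are the background for their counts. Of 11 other inflammasome sensors, 9 were higher in the G93A library and 1 was lower (Nlrp6). Most of these genes were low, and the count of 9 was 6 with a pseudocount of 0.1 RPKM, 3 with a pseudocount of 1 RPKM and 2 among those that reached 1 RPKM on average, which a gene can do through its G93A level alone. Aim2, a sensor of cytosolic DNA, was at 1.11 RPKM in WT vehicle, 0.913 RPKM in WT + SD, 3.73 RPKM in G93A vehicle and 3.49 RPKM in G93A + SD. Naip2, which binds a bacterial secretion protein, went from 0.490 RPKM in WT vehicle to 2.53 RPKM in G93A vehicle, but 18.1% of the 53-base windows of its transcript also occur in other genes, most of them Naip copies, so that its level is uncertain. The remaining sensors had means below 1 RPKM.

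Of 11 triggers, partners and other gasdermins, 7 were higher in G93A vehicle and 0 were lower. Casp12, a caspase of the same inflammatory family, was at 1.37 RPKM in WT vehicle, 1.44 RPKM in WT + SD, 9.01 RPKM in G93A vehicle and 14.1 RPKM in G93A + SD. It was the one gene of these lists above 1 RPKM on average that was called between the G93A libraries, 1.56-fold higher with SD. Casp8, which starts the death signal of TNF receptors, was 4.20-fold higher in the G93A library of the vehicle pair, and P2rx7, the receptor of extracellular ATP that triggers NLRP3, was 2.27-fold higher.

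The receptors of the cytokines differed as well. Of 11 interleukin 1 family receptors and decoys, 7 were higher in G93A vehicle and 0 were lower, and 2 of these 7 reached 1 RPKM on average. Those 2, Il1r1 and Il18bp, were below 1 RPKM in both WT libraries and reached it through their G93A levels. Il1r1, the signalling receptor of interleukin 1, was at 0.900 RPKM in WT vehicle, 0.828 RPKM in WT + SD, 4.84 RPKM in G93A vehicle and 3.31 RPKM in G93A + SD. Its partner chain Il1rap was between 6.88 and 9.09 RPKM in the 4 libraries and was not called. Il18bp, the decoy that binds interleukin 18, was 3.90-fold higher in G93A vehicle at 3.89 RPKM, while the receptor chain Il18r1 did not exceed 0.0556 RPKM in any library. Of 3 other ligands of the family that had a row, 1 was higher and 0 lower. This was Il33, an alarmin made by glia in the cord, which was at 42.0 RPKM in WT vehicle, 48.8 RPKM in WT + SD, 83.3 RPKM in G93A vehicle and 80.7 RPKM in G93A + SD.

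On the TNF side, 7 of 9 genes for ligands, shedding and receptors were higher in G93A vehicle and 0 were lower. Tnfrsf1a, the broadly expressed TNF receptor 1, was at 5.62 RPKM in WT vehicle, 5.19 RPKM in WT + SD, 25.8 RPKM in G93A vehicle and 26.0 RPKM in G93A + SD. Tnfrsf1b, TNF receptor 2, was at 1.01, 1.13, 4.25 and 4.89 RPKM in the same order. Both receptors were thus more abundant than Tnf in every library. Rhbdf1, a partner of the protease that sheds TNF, was 3.12-fold higher in G93A vehicle. In the receptor complex and death signalling list 8 of 13 genes were higher and 0 lower, with ratios of 2.83 for Birc3, 2.62 for Ripk1 and 2.37 for Tnfaip3, which ends TNF signals.

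Of 10 genes of MyD88 signalling 2 were higher in G93A vehicle and 0 lower, a share close to the background of 20.3%. These were Myd88, the adaptor, at 2.18-fold and Irak4, its first kinase, at 2.15-fold, while Tab2 was at 1.42-fold and was not called. Of 12 NF-kB subunits and inhibitors 5 were higher and 0 lower. They included Nfkb2, a subunit, at 3.27-fold, and Nfkbiz and Nfkbia, an atypical and a classical inhibitor, at 2.99-fold and 1.93-fold. Between the SD libraries 23.2% of all names were higher and 12.5% lower. The counts there were 9 higher and 1 lower of 11 sensors, 7 and 1 of 11 triggers, 2 and 1 of 3 other ligands and 7 and 1 of 11 receptors. They were 3 and 0 of 10 in MyD88 signalling, 7 and 0 of 9 TNF ligands and receptors, 8 and 0 of 13 in the receptor complex and 5 and 0 of 12 NF-kB genes. Between the G93A libraries, where 8.71% of all names were higher with SD and 7.31% lower, the counts were 1 higher and 2 lower of 11 sensors, 2 and 0 of 11 triggers, 1 and 1 of 3 other ligands, 2 and 1 of 11 receptors, 1 and 0 of 9 TNF ligands and receptors, 1 and 0 of 13 in the receptor complex, and 0 and 0 in both the MyD88 and the NF-kB lists. Apart from Casp12, the genes called there lay below 1 RPKM on average.

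**Figure D3:**
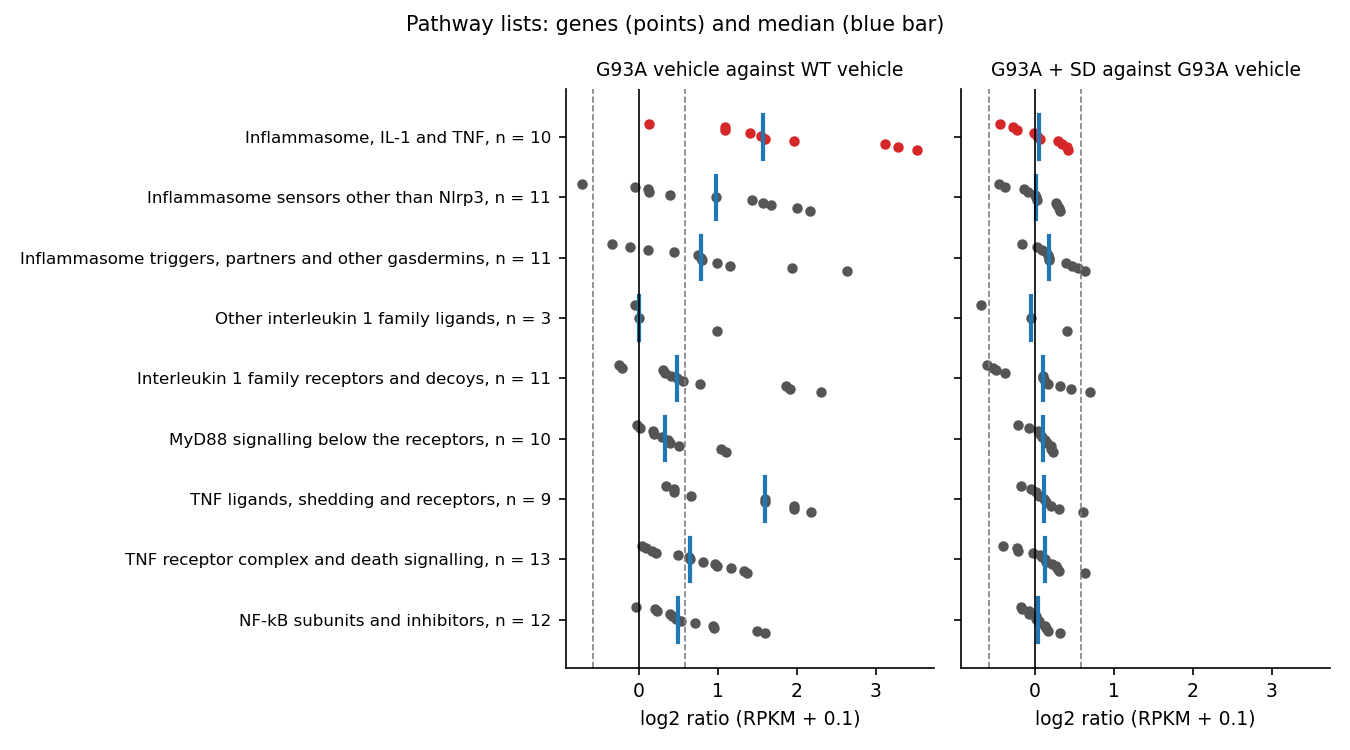
Log2 ratio of RPKM plus 0.1 for the 10 genes (red) and for the genes of the 8 pathway lists (gray), with the median of each list as a blue bar and dashed lines at 1.5-fold. In G93A vehicle against WT vehicle the median of the 10 genes is 1.57 and the list medians range from 0.00 to 1.59, and in G93A + SD against G93A vehicle all medians lie between the dashed lines.

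The background for the marker counts is again the share of all names called. In the vehicle pair 20.3% were higher and 10.3% lower, in the SD pair 23.2% and 12.5%, and with SD in G93A 8.71% and 7.31%. Markers of microglia moved in the same direction as the 10 genes. Of 12 markers, 10 were higher and 0 lower in G93A in each genotype comparison, and their summed level was 158 RPKM in WT vehicle, 153 RPKM in WT + SD, 590 RPKM in G93A vehicle and 649 RPKM in G93A + SD. The ratio of the sums was 3.73 with vehicle and 4.24 with SD, while the single genes ranged from 1.05 for P2ry12, a marker of resting microglia, to 12.3 for Trem2, a marker of their activated state, in the vehicle pair. None of the 12 was at 0 in any library. Between the G93A libraries 1 of the 12 was called higher with SD (Fcrls, from 16.9 to 45.4 RPKM) and the ratio of the sums was 1.10. Of 7 astrocyte markers, 4 were higher and 0 lower in the vehicle pair, and their summed level was 1714 RPKM in WT vehicle, 1569 RPKM in WT + SD, 3830 RPKM in G93A vehicle and 4328 RPKM in G93A + SD. Gfap, the filament protein of reactive astrocytes, made most of that difference, going from 441 to 2269 RPKM between the vehicle libraries, and the sum of the other 6 was 1.23-fold higher in G93A vehicle. Neuron markers summed to 2633, 2583, 1597 and 1268 RPKM in the same order, with 0 of 5 higher and 2 lower in the vehicle pair. The part of these cell types in the levels of the 10 genes was not tested.

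Markers of white blood cells were far lower. Their counts stand beside 20.3% of all names higher and 10.3% lower in the vehicle pair, and 8.71% higher and 7.31% lower with SD in G93A. Monocyte and border macrophage markers summed to 4.68 RPKM in WT vehicle, 4.93 RPKM in WT + SD, 6.85 RPKM in G93A vehicle and 9.90 RPKM in G93A + SD, with 4 of 9 higher and 1 lower in the vehicle pair (2 and 0 with a pseudocount of 0.1 RPKM). Most of that sum was Vcan, which cells other than monocytes also express, and the other 8 markers summed to 0.991, 1.09, 1.27 and 1.73 RPKM in the same order. Neutrophil markers summed to 1.15, 0.871, 2.60 and 0.939 RPKM in the same order, so that G93A vehicle was the highest, with 7 of 9 higher than in WT vehicle and 7 of 9 lower in G93A + SD than in G93A vehicle, against 20.3% and 7.31% of all names. With a pseudocount of 0.1 RPKM 2 of the 9 (S100a8 and S100a9) were called in each of these comparisons, since the others were at or near 0. S100a9 was at 1.27 RPKM in G93A vehicle and 0.342 RPKM in G93A + SD, and Elane was listed at 0 in the other 3 libraries. T cell markers summed to 0.288, 0.646, 0.948 and 1.15 RPKM, with 8 of 9 higher and 0 lower in the vehicle pair (4 and 0 with the pseudocount) and 5 higher and 0 lower with SD in G93A (1 and 0). B cell markers summed to 0.180, 0.303, 0.615 and 0.348 RPKM, with 4 of 5 higher and 1 lower in the vehicle pair (2 and 1 with the pseudocount) and 2 higher and 3 lower with SD in G93A (0 and 2). Cd3d, Cd3e, Cd8a and Ms4a1 were listed at 0 in WT vehicle. Their part in the levels of Il1b, Il1rn and Tnf, which were lower in G93A + SD than in G93A vehicle by any amount, was not tested.

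**Figure D4:**
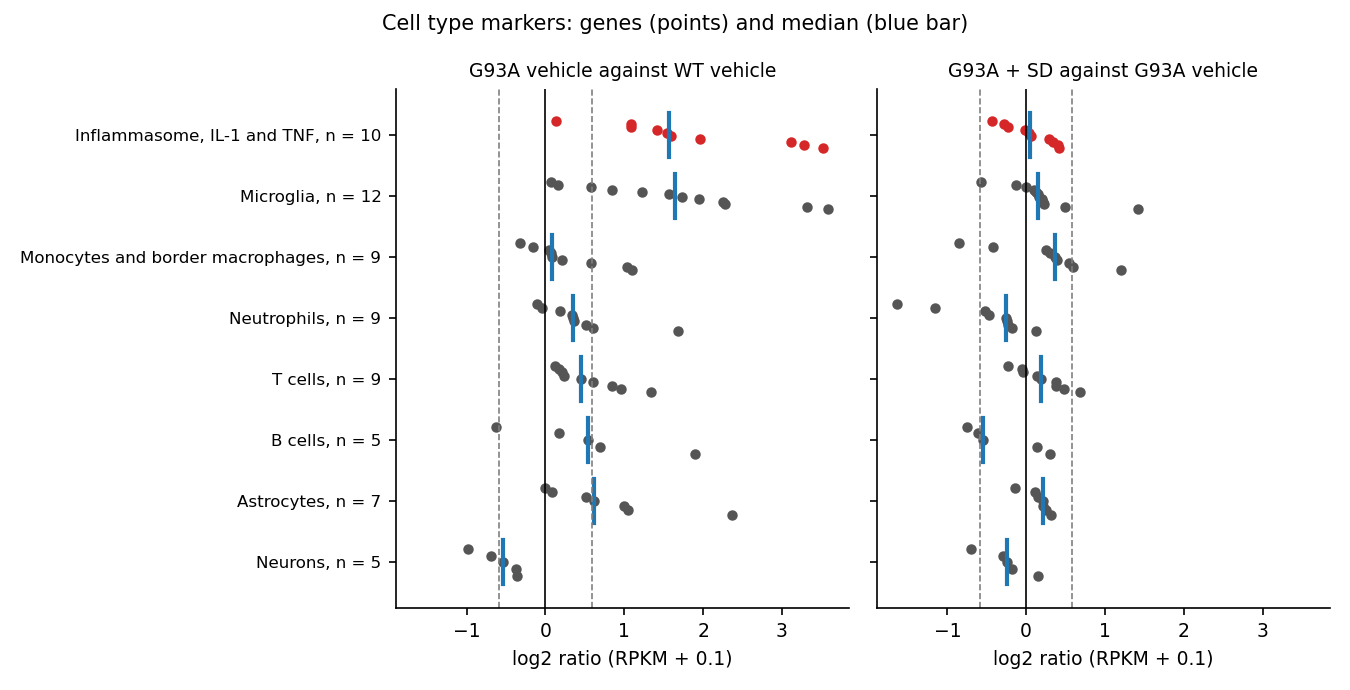
Log2 ratio of RPKM plus 0.1 for the 10 genes (red) and for marker genes of 7 cell types (gray), with the median of each set as a blue bar and dashed lines at 1.5-fold. The median of microglia markers (1.65) lies near that of the 10 genes (1.57) in G93A vehicle against WT vehicle, and the median of neutrophil markers is below 0 in G93A + SD against G93A vehicle.

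The genes most like each of the 6 more abundant genes in their pattern over the 4 libraries were found by Euclidean distance between centred log2 values. With only 4 libraries such a distance is a description. Nearest to Casp4 was Ctsd, a lysosomal protease, at a distance of 0.09 and with 186 RPKM in WT vehicle, 174 RPKM in WT + SD, 1545 RPKM in G93A vehicle and 1516 RPKM in G93A + SD, followed by Grn and Bcl2a1d. The distances carry a pseudocount of 0.1 RPKM, which lowers the vehicle-pair ratio of Casp4 from 14.6 to 8.69. It hardly changes that of the abundant Ctsd, so the order of these neighbours depends on the pseudocount. The WT values of Casp4 also rest on an estimated 6.88 and 7.38 read pairs. Nearest to Casp1 was Lrrc3 at 0.05, followed by Entpd1, an enzyme that breaks down extracellular ATP, and Lix1l. For Pycard the nearest were 1500015O10Rik at 0.08, Casp8 and Cd33, a receptor of myeloid cells. Nearest to Gsdmd was Gpr126 at 0.02, followed by E130114P18Rik and 5430435G22Rik, and nearest to Il1a was Adamtsl3 at 0.07, followed by 2210404J11Rik and Lair1. The level pattern of Il18 was nearest to those of Ccni, Socs7 and Atp6ap1, all at a distance of about 0.01.

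Positions are those of the GENCODE M21 annotation of GRCm38, in which some of the 10 genes overlap others. No source says that reads were counted by strand, so that reads from sequence shared by overlapping genes cannot be told apart. Il1a overlaps Gm14023, and 9.0% of the 53-base windows of its transcript occur in that gene. Il1b overlaps its antisense gene Il1bos, Il18 overlaps Bco2 and Tex12, and Pycard overlaps Gm45205, all on the opposite strand. Of the 53-base windows of the Il1b and Il18 transcripts, 0 occur in an annotated transcript of another gene. Of the 53-base windows of the transcript paired with Pycard, 11.6% occur in Gm45205 or Mvp, so that the level of Pycard may include reads of these genes. The annotated transcript paired with Pycard is longer (3800 bases) than the whole RefSeq gene (2495 bases), so that no read pairs are given for it. The filter on estimated read pairs still used the length of 3800 bases for Pycard. For Il1rn, Tnf, Nlrp3, Casp1, Casp4 and Gsdmd no overlapping gene was annotated.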

How the data were processed

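The 10 genes and the gene lists were chosen with earlier results of these data known. The authors deposited 1 table with 1 column per library, and groups were taken from the sample titles. The authors deposited normalized values without naming their unit, and these were read as RPKM, since their products with transcript length add up to similar totals in all libraries. According to the submitters' processing notes, reads were aligned with STAR to GRCm38. The methods name HTSeq and Ensembl genes for the counting, whereas the rows are RefSeq transcripts, and how the values were made from counts is not given in the sources used here. The authors' 3 ratio columns, which are fold changes between libraries, were not used. The design had also allowed for counts, and the values were treated as a normalized unit.

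The rows of a name were averaged and libraries were compared as ratios, called at 1.5-fold, and a name listed at 0 in only one of the libraries compared was called. Log2 values carry a pseudocount of 0.1 RPKM. Read pairs were estimated per library by taking the commonest low value times kilobases of transcript as 1 read pair, with GENCODE M21 lengths for 23026 of 23750 rows. No interval was attached to these estimates. Promoters came from RefSeq, and the motifs were chosen after the files had been seen. The named genes are the 10 genes, the 3 genes of each pathway list with the largest difference between the vehicle libraries among those with a mean of at least 1 RPKM, 5 receptors, and the 3 nearest genes in pattern. Marker genes are named beside the counts they belong to, and Nlrp6 was named after its values were seen. Alternatives were other pseudocounts and thresholds, a filter on low values, scaling by median ratios and any row of a name, and a filter on estimated read pairs was added after seeing the values. Scripts ran in Python 3.11.15 with pandas 2.3.3, numpy 2.4.6 and, for the plots, matplotlib 3.10.9, and were tested on simulated data.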

Additional observations from a re-analysis of the deposited data

Results flagged for a closer look

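For 6 of the 10 genes SD went with opposite directions in the 2 genotypes, each judged on 1 library against 1, and the same was so for 44.6% of all 18674 names. The values are log2 ratios of SD to vehicle with a pseudocount of 0.1 RPKM, and the difference is G93A minus WT. Nlrp3 had the largest difference, 1.17, with -0.76 in WT and 0.41 in G93A. Il1a differed by 0.56 (-0.14 in WT and 0.42 in G93A) and Casp1 by 0.51 (-0.17 in WT and 0.34 in G93A). Il1b differed by -0.75 (0.47 in WT and -0.28 in G93A) and Il1rn by -0.64 (0.21 in WT and -0.44 in G93A). Casp4 differed by -0.042 (0.03 in WT and -0.02 in G93A), which is close to no difference at all. For each of these genes the difference was not tested, since no group has a second library, and the WT values of Il1b and Il1rn rest on fewer than 5 estimated read pairs.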

How the results depend on the processing

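With a mean of at least 1 RPKM required, the count of higher genes in G93A was 5 in the vehicle pair and 5 in the SD pair, because 6 of the 10 genes remain in the comparison. Of these 6, 4 are below 1 RPKM in both WT libraries and pass only through their G93A levels, so that this count lends the difference no support. The counts for SD in WT depended most on the setting. With a pseudocount of 0.1 RPKM 0 genes were higher and 1 was lower, with a pseudocount of 1 RPKM 0 and 0, with the filter on the mean 0 and 0, and with at least 10 estimated read pairs in the pair of libraries 0 and 1, the last setting being chosen after seeing the data. A pseudocount of 1 RPKM also brought Tnf and Nlrp3 in the vehicle pair to log2 ratios of 0.41 and 0.40 and Tnf in the SD pair to 0.40, all under 1.5-fold. Of 11 other sensors, the count that was higher in G93A vehicle went from 9 to 6 with a pseudocount of 0.1 RPKM, to 3 with a pseudocount of 1 RPKM and to 2 with the filter on the mean. For the interleukin 1 receptors it went from 7 to 4, 3 and 2 with pseudocounts of 0.1 and 1 RPKM and the filter, and for the TNF receptor complex from 8 to 5 with a pseudocount of 1 RPKM or the filter. In these lists too a gene can pass the filter through its G93A level alone. Scaling by median ratios shifted log2 ratios by -0.06 and -0.07 in the genotype pairs and by -0.01 in both SD pairs and changed the call of none of the 38 ratios of the 10 genes. No ratio changed direction under the alternatives that were run. No paired analysis was possible because each group has 1 library, and for the same reason no library could be left out. Depth limits Il1b, Il1rn, Tnf and Casp4 in WT, each under 8 estimated read pairs.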
